A study of Drosophila melanogaster with 384 samples.

Results

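The proteasome is the protease complex that degrades ubiquitin-tagged proteins in all eukaryotic cells. Its barrel-shaped core is built of alpha rings, which gate the entrance, and beta rings, which hold the proteolytic sites. The regulatory cap has a base, with a ring of ATPases that unfold substrates, and a lid, which removes ubiquitin. Drosophila melanogaster carries extra copies of many of these subunit genes, and several of the copies are known to be transcribed in the testis, where Prosalpha6T is needed for sperm maturation. Promoter accessibility of both kinds of gene was examined here in cells of the developing eye.

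The 48 genes examined were the protein-coding genes of the release 6 annotation whose symbols begin with Prosalpha, Prosbeta, Rpn or Rpt and a digit, out of 13986 protein-coding genes. A T or R after the digit, with or without a further digit, marked 16 of them as testis-type paralogs, and 32 were called other proteasome genes. This reading counts Prosalpha4T1 and Prosalpha4T2 as testis-type. The split rests on symbols and not on a measurement of testis expression. Sem1, a lid subunit with a different kind of name, is described with the ubiquitin pathway.

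Accessible chromatin was profiled cell by cell with ATAC-seq, where the transposase Tn5 cuts and tags open DNA, after capture of single cells in the chambers of a Fluidigm C1 chip. A pool of 200 eye-antennal discs, from which the eye, antenna and head capsule of the adult develop, was taken from wandering larvae of the last (L3) instar of the strain F2-B(sens)-GFP (genotype w;F2-B/CyO), dissociated and sorted for living GFP-positive cells. The reporter is driven by an intronic enhancer of senseless (sens) targeted by Atonal, so the sort takes the cells where this enhancer is active, and they are called sens-GFP+. There was this 1 group, with no animal, dissection or chip named per cell, so the cells were summed as 1 sample and no test between groups was made.

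The count table held 72 of the labelled cells (the others were not analysed here), 68775 regions of the non-coding genome and 197425 counts. The total per cell ranged from 908 to 5892 (median 2694.5), and 2 cells had fewer than 1000. The promoters of R8 and furrow genes were covered, with a median of 9.87 counts per kb over 5 genes and 16.3 counts per kb at sens, though ato had 3.15 and boss 2.35. The 3 photoreceptor markers had a median of 7.52, with 22.6 at gl and 2.16 at chp (2 counts), and the 3 eye markers had a median of 7.21. Of 19 testis and germ line genes, 11 had a listed promoter region, with a median of 2.19 counts per kb. Mst98Ca had 0 counts, mia 7.63 and nanos 9.51 counts per kb, and the spermatocyte genes aly, can and sa had no listed region.

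A promoter was taken as all listed regions within 500 bp of a transcription start site (TSS) of the gene. Its density is the number of counts in all cells per kb of their total length. Intervals are exact 95% intervals (Poisson for counts and densities, binomial for cells) and reflect counting error alone, because amplified reads that carry no molecular identifier may stem from the same molecule. A lower summed density can come from fewer cells with an open promoter or from less opening per cell, and these cannot be told apart.

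Promoters of testis-type paralogs were less accessible than those of the other proteasome genes. The 11 paralogs with a listed promoter region held 17 counts (1.55 per gene) on 10.5 kb, or 1.62 counts per kb (0.942 to 2.59). The 31 other genes with a listed region held 5.94 counts per gene on 26.5 kb in all, or 6.93 counts per kb (5.97 to 8.01). The testis-type density was 0.233 of that of the other genes (0.133 to 0.384). Over genes, the median was 1.23 counts per kb for the paralogs and 5.36 for the other genes, against 3.68 for the 11726 protein-coding genes with a listed promoter region. The paralogs thus lay below the typical promoter, and the other proteasome genes above it.

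Being listed at all also differed. No region was listed within 500 bp of the TSS of 5 of 16 testis-type paralogs (31.25%), against 1 of 32 other genes (3.125%), beside 16.2% of all protein-coding genes. The 5 paralogs were Prosalpha1R, Prosbeta4R1, Prosbeta4R2, Rpn12R and Rpn13R, and the other gene was Prosalpha1. Their nearest listed regions lay between 757 bp (Prosbeta4R2) and 3174 bp (Prosalpha1) away. Prosalpha1 and Prosalpha1R are neighbours on 2R, and Prosbeta4R1 and Prosbeta4R2 are neighbours on 2L. These genes give no value, high or low, in the comparisons of density.

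Among the listed promoters, 2 of 11 testis-type paralogs had no count in any cell (Prosalpha4T1 and Rpt4R), against 0 of 31 other genes, beside 8.03% of all listed promoters. This contrast depended on the settings: the numbers were 1 and 1 with a window of 100 bp or with the endings T, R, R1 and R2 taken literally, 1 and 0 with 250 bp, and 0 and 0 with 1000 bp. The number at or above 2 times the median of all genes (7.35 counts per kb) was 0 of 11 for the paralogs and 9 of 31 (29.03%) for the other genes, beside 25.9% of all listed promoters. The other proteasome genes were thus close to the background in the share of very accessible promoters. They stood above it at the median itself, which 2 of 11 paralogs (Prosbeta5R1 and Rpt3R) and 25 of 31 other genes (80.6%) reached. The 9 genes past 7.35 were Prosalpha6, Rpn6, Prosbeta3, Rpn13, Rpt3, Prosalpha7, Rpn8, Prosalpha3 and Rpt4. Rpt4, at 8.75 counts per kb, was the nearest inside the limit, and Rpn3, at 7.18, the nearest outside it.

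**Figure D1:**
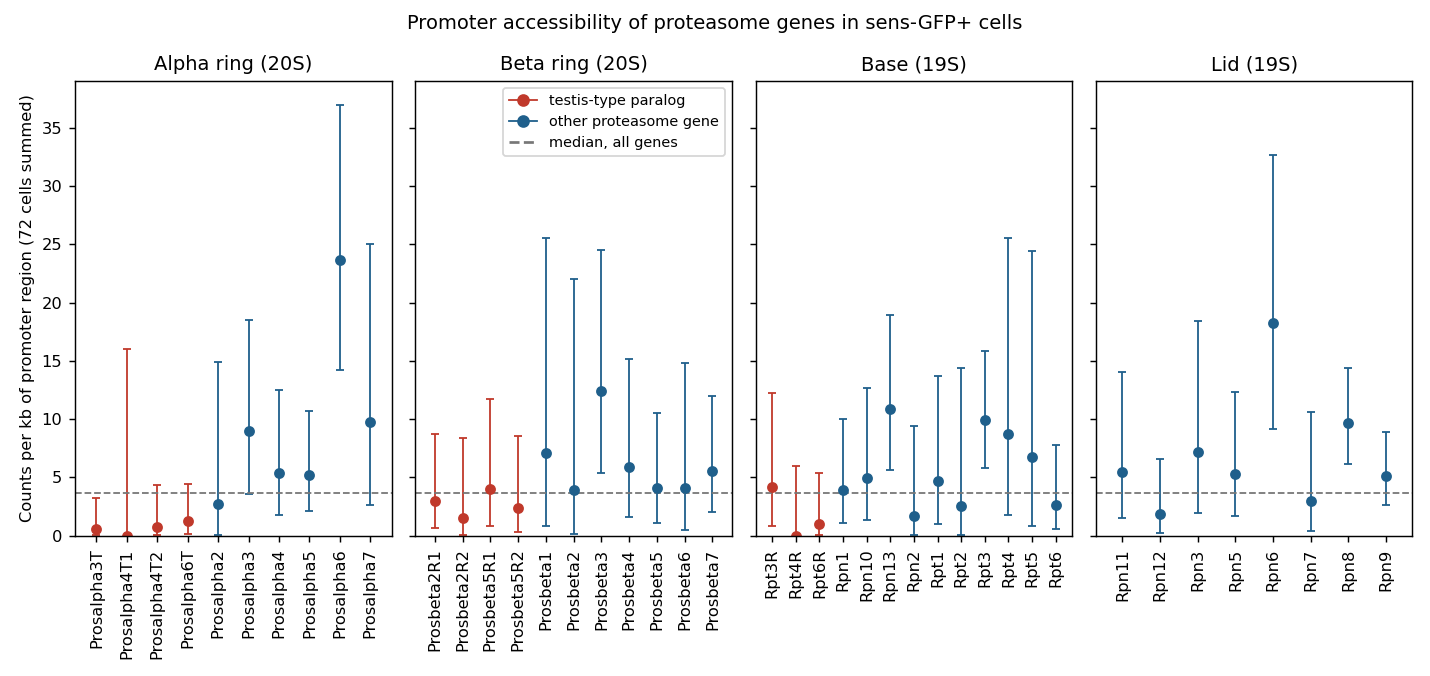
Counts per kb of promoter region, summed over 72 cells, for the 42 proteasome genes with a listed region, by subcomplex (points: value, bars: exact 95% Poisson interval, dashed line: median of all protein-coding genes, 3.68). The testis-type paralogs lie between 0 and 4.18 counts per kb, and the other genes between 1.69 and 23.7, with the highest value at Prosalpha6.

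The alpha ring showed the widest separation. Its testis-type paralogs together had 0.821 counts per kb (0.224 to 2.10) over 4 genes, and its other subunits 9.24 (6.69 to 12.5) over 6 genes. Prosalpha3T had 1 count on a region of 1725 bp, or 0.580 counts per kb. Prosalpha4T2 had 1 count (0.777 counts per kb) and Prosalpha6T had 2 counts in 2 cells (1.23 counts per kb). These regions were long, between 1287 and 1725 bp, and each gave a low density. Prosalpha4T1 differed in this: its region of 0.231 kb had 0 counts, and a limit of 3 counts still allows 12.99 counts per kb. Prosalpha4T1 lies inside CG42322.

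Among the other alpha genes, Prosalpha6 was the most accessible proteasome promoter, with 19 counts in 13 cells on 803 bp. The density was 23.7 counts per kb (14.2 to 37.0), which 99.1% of protein-coding genes with a listed promoter did not reach. Up to 5 of these counts came from a single cell, and with repeat counts of a region in a cell set to 1 the density was 16.2. The region also holds the TSS of Npc1a, a gene of sterol transport, and counts cannot be assigned to either gene. Prosalpha2 was lowest in the ring, with 1 count on 0.374 kb (2.67 counts per kb). The remaining listed alpha genes, Prosalpha3, Prosalpha4, Prosalpha5 and Prosalpha7, ranged from 5.17 to 9.78 counts per kb, with 7 counts (8.97 counts per kb) at Prosalpha3 and 5 counts (5.36) at Prosalpha4, both parents of testis-type paralogs.

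In the beta ring the groups lay closer. The testis-type paralogs had 2.75 counts per kb (1.26 to 5.22) over 4 genes and the other subunits 6.13 (4.04 to 8.92) over 7 genes, so that the intervals overlapped. Prosbeta5R1 had 3 counts (4.01 counts per kb) and Prosbeta5R2 had 2 counts (2.37 counts per kb), while their parent Prosbeta5, which carries the chymotrypsin-like site, had 4 counts (4.11 counts per kb). Prosbeta2R1 had 3 counts (2.97 counts per kb) and Prosbeta2R2 had 1 count (1.497 counts per kb). Their parent Prosbeta2, which carries the trypsin-like site, had 1 count on 0.253 kb (3.95 counts per kb). The only listed region of Prosbeta2 begins 414 bp from its TSS and does not include it, so the start site itself was not measured.

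Prosbeta3, a beta subunit without a proteolytic site, was highest in this ring with 8 counts in 8 cells (12.4 counts per kb, 5.36 to 24.5). Prosbeta2 was the lowest of the other beta genes. Prosbeta4, whose paralogs Prosbeta4R1 and Prosbeta4R2 had no listed region, had 4 counts (5.92 counts per kb). All 7 of these genes reached the median of all promoters, and 1 of the 4 paralogs did.

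In the base, the testis-type ATPase paralogs had 1.69 counts per kb (0.460 to 4.33) over 3 genes, and the other base genes 6.22 (4.62 to 8.20) over 10 genes. Rpt3R had 3 counts (4.18 counts per kb, 0.863 to 12.2) at a region that also holds the TSS of Alg12. Rpt6R had 1 count on 1029 bp (0.972 counts per kb) and its parent Rpt6 had 3 counts on 1124 bp (2.67). Rpt4R had 0 counts on 621 bp, where a limit of 3 counts allows 4.83 counts per kb, and this region lies 0.335 kb from its nearest TSS. Its parent Rpt4 had 3 counts on 0.343 kb. Rpn13, a ubiquitin receptor, was highest among the other base genes with 12 counts in 6 cells (10.8 counts per kb), but up to 4 came from a single cell. With repeat counts of a region in a cell set to 1, Rpn13 had 5.42 counts per kb, and Rpt4 (8.75), Rpt3 (8.74) and Rpt5 (6.76) were higher. Rpn2, a scaffold subunit, was lowest with 1 count (1.69 counts per kb). Rpt3 had 17 counts in 15 cells (9.91 counts per kb, 5.77 to 15.9), and no cell held more than 2 of them.

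The lid genes had 6.77 counts per kb (5.22 to 8.65) over 8 genes, and the 1 testis-type gene of the lid, Rpn12R, had no listed region. Rpn6 was highest with 11 counts in 9 cells (18.2 counts per kb), and Rpn12 lowest with 2 counts (1.83 counts per kb). Rpn11, the deubiquitinase of the lid, had 4 counts (5.49 counts per kb). Rpn8 held more counts than any other proteasome gene, 24 in 17 cells, or 9.64 counts per kb. Of these, 23 came from a region of 1822 bp near its second start site, which it shares with Slik. The 4 subcomplexes thus had similar densities among the other proteasome genes, between 6.13 and 9.24 counts per kb, with overlapping intervals.

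Each testis-type paralog was next set beside the gene whose symbol it extends. Of 16 pairs, 11 had a listed region on both sides, and the paralog had the lower density in 11 of 11. In 4 of them both genes had at most 3 counts, and Prosalpha4T1 had 0 counts, so the direction of these pairs is not resolved. Alternatives were followed for the 6 pairs with a ratio. Among these, Prosbeta5R1 turned when each cell was scaled to the median depth. Counting error separated the densities in 2 pairs. The density of Prosalpha6T was 0.0519 of that of Prosalpha6 (0.00586 to 0.215), from 2 and 19 counts. This ratio ranged from 0.0519 to 0.101 over the alternatives that gave a value. Leaving out shared regions gave none, because the only region of Prosalpha6 also holds the TSS of Npc1a. For Prosalpha3T over Prosalpha3, the ratio was 0.0646 (0.00143 to 0.503), from 1 and 7 counts, and ranged from 0.0330 to 0.0717. Without shared regions, the value of this pair rested on 1 count at Prosalpha3. The region with its other 6 counts is shared with dgt3. For neither pair was the part of the neighbouring gene resolved. Both pairs belong to the alpha ring.

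For the other pairs with a ratio, the interval included 1. It was 0.145 for Prosalpha4T2 over Prosalpha4 (0.00306 to 1.29) and 0.422 for Rpt3R over Rpt3 (0.0793 to 1.46). The ratio was 0.577 for Prosbeta5R2 over Prosbeta5 (0.0522 to 4.03, and 0.274 with 1000 bp) and 0.975 for Prosbeta5R1 over Prosbeta5 (0.143 to 5.77), and this last value was 1.13 with the scaled cells. In 4 pairs (Rpt4R, Rpt6R, Prosbeta2R1 and Prosbeta2R2 with their parents) both genes had at most 3 counts and no ratio was taken. With 0 counts at Prosalpha4T1, a limit of 3 counts allows up to 2.42 times the density of Prosalpha4, so this pair could not be resolved at this depth. Prosalpha4, Prosbeta2, Prosbeta4 and Prosbeta5 each served as parent in 2 pairs, so these pairs are not independent.

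**Figure D2:**
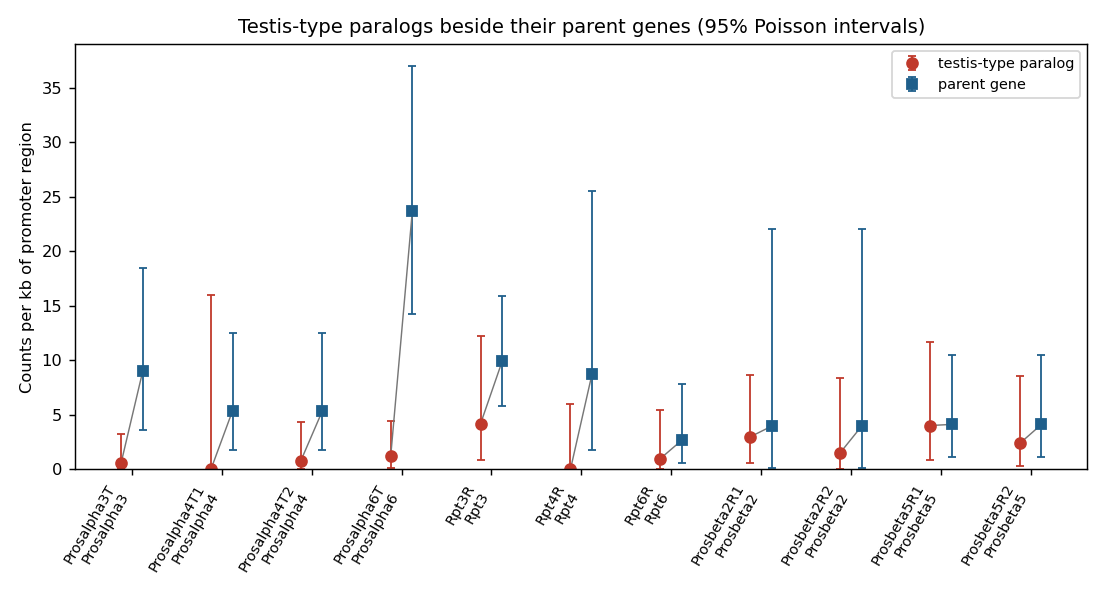
Counts per kb of promoter region for 11 testis-type paralogs (circles) and their parent genes (squares), summed over 72 cells, with exact 95% Poisson intervals. The paralog point lies lower in every pair, but in 4 pairs both genes had at most 3 counts, and Prosalpha4T1 had 0 counts. Prosbeta5R1 turned with cells scaled to the median depth. The gap is widest for Prosalpha6T (1.23) and Prosalpha6 (23.7) and narrowest for Prosbeta5R1 (4.01) and Prosbeta5 (4.11).

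Cells with a count were fewer for the testis-type promoters than for the other proteasome promoters. At least 1 count at a testis-type promoter was found in 14 of 72 cells (19.4%, 11.1 to 30.5%), and at another proteasome promoter in 60 of 72 cells (83.3%, 72.7 to 91.1%). Poisson counting of the same totals, spread over the cells by depth, would give 14.96 and 64.3 cells. The numbers of cells are thus not a result apart from the totals. With only regions that hold no TSS of another gene, 12 and 28 of 72 cells had a count. No single testis-type gene had more than 1 count in a cell, and all of them together had at most 2, while the other genes together had at most 10 in a cell. Across cells the variance of the summed counts was 0.267 for the paralogs (mean 0.236) and 5.10 for the other genes (mean 2.56). Of the 14 cells with a testis-type count, 13 also had a count at another proteasome gene, beside 83.3% of all 72 cells.

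Counts at these promoters were higher in cells of higher depth. With the cells cut by depth into 4 bins of 18 cells, from lowest to highest, the testis-type promoters had 1, 4, 6 and 6 counts, and the other promoters had 26, 34, 53 and 71. As a share of all counts of these cells, the other promoters took 0.0861%, 0.0792%, 0.100% and 0.0993%. The share changed little across the bins, while the counts grew with depth.

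Sharing of the promoter with a neighbour moved with accessibility. Another TSS lay within 500 bp of the regions of 2 of 11 testis-type paralogs (Rpt3R with Alg12, Prosbeta2R2 with CG1116) and of 23 of 31 other proteasome genes (74.2%), beside 52.7% of all listed promoters. All 9 genes past 2 times the median were among these 23. Where no other TSS was present, the density was 1.42 counts per kb (0.759 to 2.44) at 9 testis-type paralogs and 4.54 (3.06 to 6.48) at 8 other proteasome genes. These intervals did not overlap. Where a second TSS was present, the values were 2.89 (0.787 to 7.39) at 2 paralogs and 7.72 (6.55 to 9.04) at 23 other genes. Over all protein-coding genes, the median was 5.13 counts per kb with a second TSS and 2.41 without one, and 34.4% and 16.3% of genes were at or above 2 times the median of all. The part of the neighbouring gene in these densities was not tested.

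The surroundings of the testis-type paralogs were also less accessible. Listed regions between 500 bp and 10 kb from the TSS had 2.11 counts per kb (1.88 to 2.37) around the paralogs and 4.76 (4.48 to 5.06) around the other proteasome genes, a ratio of 0.443 (0.388 to 0.505). For all protein-coding genes, with a region counted for each gene near it, the value was 3.18. At the other proteasome genes the promoter exceeded these surroundings 1.46 times (1.24 to 1.70). Over all protein-coding genes it did so 1.61 times, which lies inside this interval. At the paralogs the promoter had 0.766 of the density of its surroundings (0.440 to 1.25), so no rise at the start site was detectable at this depth. Between 1 and 2 kb from the TSS the paralogs reached 3.13 counts per kb, close to the 3.01 of all genes.

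**Figure D3:**
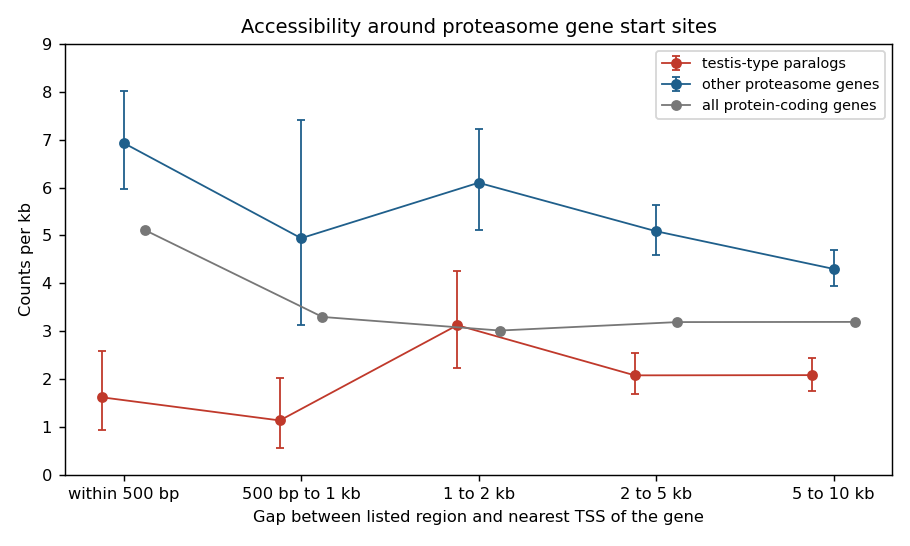
Counts per kb of listed regions by the gap between region and TSS, with exact 95% Poisson intervals for the testis-type paralogs and the other proteasome genes (all protein-coding genes without an interval). The testis-type paralogs stay between 1.14 and 3.13 counts per kb at every distance, and the other proteasome genes between 4.30 and 6.93, highest within 500 bp.

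Both kinds of proteasome gene were set beside other gene groups chosen by symbol. The testis-type paralogs, with a median of 1.23 counts per kb, lay near the odorant and gustatory receptor genes, which are used in sensory neurons (median 1.69 over 70 listed genes). Of these receptor genes 18.6% had no count and 2.86% were at or above 2 times the median. The other proteasome genes, with a median of 5.36, lay between all listed protein-coding promoters (3.68) and the ribosomal protein genes, which are active in all cells. The medians of the latter were 6.86 (cytosolic, 90 genes) and 6.73 (mitochondrial, 71 genes). The share of other proteasome genes at or above 2 times the median, 29.03%, was below the 45.6% of cytosolic and 43.7% of mitochondrial ribosomal protein genes. It was closer to the 25.9% of all listed promoters.

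**Figure D4:**
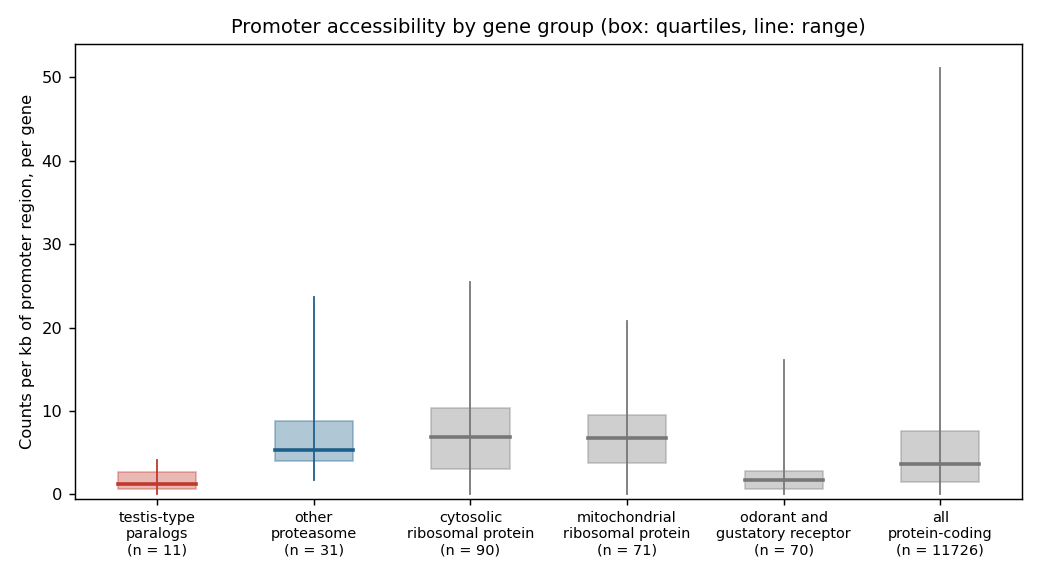
Counts per kb of promoter region per gene in 6 groups of genes (box: quartiles, thick line: median, thin line: lowest to highest gene). Testis-type paralogs (median 1.23) sit beside odorant and gustatory receptor genes (1.69). The other proteasome genes (5.36) lie between all protein-coding genes (3.68) and the cytosolic (6.86) and mitochondrial (6.73) ribosomal protein genes.

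Genes that work with the proteasome were covered as well. All 20 genes of a list of ubiquitin and proteasome cofactors had a listed promoter and at least 1 count, with a median of 4.74 counts per kb, and 7 of 20 were at or above 2 times the median of all genes, beside 25.9% of all listed promoters. Ubqn, a shuttle protein that brings ubiquitinated substrates to the proteasome, had 23.97 counts per kb. Uch-L5, a deubiquitinase bound to the cap, had 18.9, the ubiquitin-conjugating enzyme gene eff 14.1 and the ubiquitin-activating enzyme gene Uba1 12.96. The assembly factor gene Pomp had 4.44 and Sem1 had 2.11. The lowest were PI31, a proteasome regulator, with 1.66, and ntc, an F-box gene known for its role in sperm differentiation, with 1.17 (1 count). For cnc, whose protein is known to activate proteasome genes under stress together with maf-S, the density was 5.04, and maf-S had 13.8.

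The promoter sequences differed in the DNA replication-related element (DRE, TATCGATA), the site of the factor DREF, which is known at many genes used in growing cells. In the window of 250 bases before to 50 bases after the TSS, on both strands, the DRE was found at 0 of 16 testis-type paralogs and 12 of 32 other proteasome genes (37.5%), beside 9.36% of the 13945 protein-coding genes searched. Its letters read the same on both strands. It was also found at 30.4% of cytosolic ribosomal protein genes and 0.840% of receptor genes. The listed regions of Prosbeta2 (with a DRE) and Rpn6 (without) do not overlap the searched window. Among the remaining other proteasome genes, the median was 6.76 counts per kb for 11 with a DRE (1.83 to 23.7) and 5.33 for 18 without (1.69 to 12.4), so the ranges overlapped widely. Median GC content of the window was 32.7% for the paralogs, 33.5% for the other genes and 38% for all genes.

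The 100 bases before the TSS are printed for the pair with the widest gap, for Prosbeta2 with both of its paralogs, and for Prosbeta6, with the DRE in capitals. They were read 5′ to 3′ on the strand of the gene from the RefSeq release 6 genome. Those of Prosalpha6T are at chr2L:13231939-13232038 (plus strand) and those of Prosalpha6 at chr2L:10221251-10221350 (plus). The stretch of Prosbeta2R1 is chrX:5808854-5808953 (plus), that of Prosbeta2R2 chr3R:5219529-5219628 (minus), that of Prosbeta2 chr3L:14999851-14999950 (plus) and that of Prosbeta6 chr3L:16610419-16610518 (minus). None of these bases lies in an annotated exon.
Prosalpha6T: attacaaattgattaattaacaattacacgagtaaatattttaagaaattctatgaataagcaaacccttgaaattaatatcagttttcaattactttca
Prosalpha6: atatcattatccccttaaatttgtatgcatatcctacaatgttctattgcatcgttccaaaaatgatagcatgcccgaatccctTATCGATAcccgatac
Prosbeta2R1: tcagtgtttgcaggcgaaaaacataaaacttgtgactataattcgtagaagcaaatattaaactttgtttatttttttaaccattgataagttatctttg
Prosbeta2R2: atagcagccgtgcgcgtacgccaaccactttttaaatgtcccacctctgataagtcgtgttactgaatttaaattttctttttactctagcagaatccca
Prosbeta2: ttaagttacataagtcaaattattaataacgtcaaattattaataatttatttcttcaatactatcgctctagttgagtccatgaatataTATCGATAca
Prosbeta6: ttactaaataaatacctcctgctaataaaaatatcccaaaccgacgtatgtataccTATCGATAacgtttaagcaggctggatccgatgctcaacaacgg

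In these stretches the DRE begins 16 bases before the TSS of Prosalpha6, 10 bases before that of Prosbeta2 and 44 bases before that of Prosbeta6, and no DRE is present in the 3 paralogs. The density was 23.7 counts per kb at Prosalpha6 and 4.10 at Prosbeta6, the last from 2 counts (0.496 to 14.8). The counted region of Prosbeta2 does not reach its DRE.

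Other motifs were less unequal. GAGAG, a core of the sites of the GAGA factor, was found at 6 of 16 paralogs (37.5%) and 3 of 32 other genes (9.38%), beside 29.7% of all genes. The core TGACNNNGC of antioxidant response elements, the type of site bound by the cnc protein, was found at 1 of 16 paralogs (Prosbeta4R2) and 5 of 32 other genes (15.6%), beside 8.63% of all. TATAAA was found at 5 of 16 paralogs and 13 of 32 other genes (40.6%), beside 45.8% of all. CAGCTG was found at 1 of 16 paralogs and 1 of 32 other genes, beside 17.7% of all genes and 54.8% of mitochondrial ribosomal protein genes. A match says that the letters are in the window and not that a factor is bound there.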

How the data were processed

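The authors deposited whole-number counts per region and cell, without normalisation, for cisTarget regions, made by partitioning non-coding sequence according to how conserved it is among species. Per the labels and the study's methods, reads were trimmed, mapped to release 6 (dm6) and freed of duplicates. The submitters' processing notes name FastQC 0.1, Bowtie2 2.2.5, SAMtools 1.2 and Picard. The methods name featureCounts on fragments for the bulk samples. For the single-cell table, the counting tool, any shift of reads for Tn5, and why these cisTarget regions and not others are listed are not given in the sources used here. Cells were kept by the authors by hand, and a choice on promoter signal would raise promoter counts, which was not tested. All 72 columns matched a sample title, and 0 were left unused.

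TSS came from Ensembl release 115 (FlyBase release 6), and the last listed base of every arm lay within the reference arm. Each region was used whole, once in each proteasome group. In summed values for all protein-coding genes, a region near several genes counted once for each of them. A region shared by genes counts for each in the values per gene. Ratios of densities have exact conditional binomial intervals. Scripts used Python 3.11.15, numpy 2.4.6, pandas 2.3.3, scipy 1.17.1 and matplotlib 3.10.9, and were tested on simulated data.

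Values were given in full for each testis-type paralog and its parent and for the other genes with most and fewest counts per kb in each subcomplex. The members and lists were chosen with earlier results of these data known. CG13779, Ufd1-like, rye and nos were matched as Sem1, Ufd1, Taf12L and nanos. Alternatives varied the window, the use of shared regions, repeated counts, the symbol endings, the cells, the scaling and the TSS used.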

Additional observations from a re-analysis of the deposited data

How the results depend on the processing

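No paired analysis was possible because all cells form a single group, with numbers that only name them. With 17 counts at the testis-type promoters, single paralogs cannot be ranked, and only summed densities and the pairs of Prosalpha6T and Prosalpha3T were separated by counting error. Over 12 alternatives the ratio of testis-type to other density stayed between 0.209 and 0.298. Of 100 alternative values of the main comparisons, 90 stayed within the counting interval of the main density or ratio, or within 1.5 times the main number of genes or cells, and 10 did not. Some of the 90 could not move. The 2 cells with fewer than 1000 counts held no count at these promoters, so leaving them out could not change the densities. Setting repeat counts to 1 could not change the testis-type density, because no testis-type gene had more than 1 count in a cell. The number of testis-type paralogs with no count was 1 with windows of 100 bp or 250 bp or with the endings T, R, R1 and R2 only, and 0 with 1000 bp. The number of other genes with no count was 1 with 100 bp or with these endings. When repeat counts of a region within a cell were set to 1, the other genes had 5.88 counts per kb. With only regions that hold no TSS of another gene, they had 4.78, 5 of them were at or above 2 times the median (then lower, at 2.62) and 28 cells had a count. With the endings taken literally, 14 testis-type and 34 other genes had 1.78 and 6.59 counts per kb. With counts per gene, added after seeing the data, the means were 1.55 and 5.94. Of 61 alternative values for the 6 pairs with a ratio, 1 turned: Prosbeta5R1 over Prosbeta5 was 1.13 with each cell scaled to the median depth. With only regions that hold no TSS of another gene, Prosalpha3T over Prosalpha3 alone had a value (0.0643), from 1 count at each gene. With 1000 bp, Prosalpha6T over Prosalpha6 was 0.101, Prosalpha3T over Prosalpha3 was 0.0330 and Prosbeta5R2 over Prosbeta5 was 0.274. With scaled cells Prosalpha6T over Prosalpha6 was 0.0851.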
